A study of Mus musculus with 4 samples.

Results

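Creatine buffers cellular ATP: creatine kinases move a phosphate between ATP and creatine, so that phosphocreatine can refill ATP where it is used. Gatm encodes the mitochondrial enzyme that joins arginine and glycine into guanidinoacetate, and Gamt encodes the enzyme that methylates guanidinoacetate to creatine. Slc6a8 encodes the plasma membrane transporter that takes creatine up. In the brain the synthesis enzymes and the transporter are found in different sets of cells, glia among them, and Ckb is the brain-type cytosolic kinase.

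The 7 genes of creatine synthesis, transport and phosphorylation, Gatm, Gamt, Slc6a8, Ckb, Ckm, Ckmt1 and Ckmt2, were taken by symbol from the 35857 genes listed. Each of the 7 matched 1 entry. They were chosen by pathway, and also by their TPM values in these same Qk_KO and control libraries, since results for some of them were already known. Their differences between Qk_KO and control are therefore given as a description, with no p-value, and no evidence is drawn from their calls.

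Neural stem cells from the cerebral cortex of C57BL/6 mouse embryos were induced to form glia, and RNA was taken from the glial progenitors 24 hr later. The Qk_KO group held 2 libraries of genotype Qk-/-, Qk being the gene of Quaking, an RNA-binding protein with roles in glia. The control group held 2 wild-type libraries. The sources used here do not give the Qk allele, how it was deleted, or whether replicates were grown as separate cultures. The p-values therefore measure only the spread between these libraries, part of which may be technical. The study asked how loss of Quaking bears on the change from making neurons to making glia.

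Levels are in TPM, a share of all transcripts that allows for transcript length, so levels of different genes can be compared. TPM keeps no read number, and the depth behind each value is unknown. Qk was at 36.1 and 43.7 TPM in Qk_KO libraries, against 208 and 215 TPM in control libraries, on the side its labels give in all 4 (log2 difference -2.38, SE 0.12, adjusted p = 0.00708 by limma over all genes tested). That call was lost with no filter on low values (adjusted p = 0.108 by limma) and without control replicate 1 or 2, with no change of direction. The stem cell and radial glia genes Fabp7 and Vim stood at 2354 and 3144 TPM, and 3373 and 2392 TPM, in Qk_KO, against 3010 and 2957 TPM, and 2370 and 2346 TPM, in control. Qk_KO replicate 1 stood apart: Xist, expressed from the inactive X chromosome, was at 0.04 TPM in it, against 62.5 TPM in Qk_KO replicate 2 and 62.2 and 57.6 TPM in control replicates 1 and 2. The Y-linked gene Eif2s3y was at 35.4 TPM in Qk_KO replicate 1 and listed at 0 in the other 3 libraries. The log2 difference of each creatine gene is therefore also given without this library.

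The creatine genes did not move together. Gatm, the first step of synthesis, stood at 16.8% of its control mean in Qk_KO, while Ckb, the main kinase, stood at 1.99 times its control mean and was the most abundant transcript of both Qk_KO libraries. Gamt and Slc6a8 lay close to their control levels. Ckmt1, the mitochondrial kinase found in many tissues, was above control in both Qk_KO libraries, by little in replicate 1 and clearly in replicate 2. Ckm and Ckmt2, the kinases of striated muscle, were near or at 0.

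**Figure D1:**
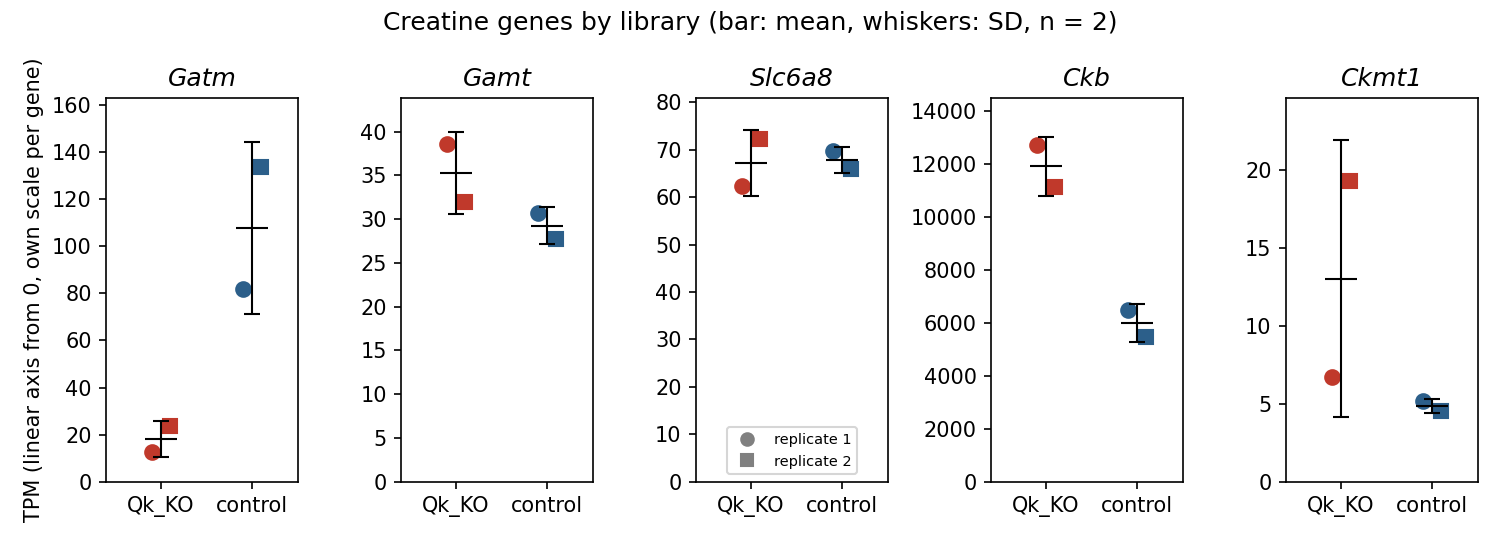
TPM of the 5 creatine genes above the filter on low values, by group (Qk_KO in red, control in blue), with each point 1 library, the bar the group mean and the whiskers the SD (n = 2). Each gene has its own linear axis from 0. Gatm at 12.6 and 23.6 TPM in Qk_KO lies far below 81.9 and 133.5 TPM in control, and Ckb at 12699 and 11112 TPM in Qk_KO lies above 6492 and 5470 TPM in control.

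Gatm (Entrez gene 67092; chromosome 2, 122594467 to 122611303, minus strand, 9 exons, GENCODE M21 on GRCm38) had 12.6 and 23.6 TPM in Qk_KO replicates 1 and 2, against 81.9 and 133.5 TPM in control replicates 1 and 2. The lowest control library was above the highest Qk_KO library, and within each group the replicates differed by 1.88 and 1.63 times, in Qk_KO and control. The means were 18.1 ± 7.80 TPM in Qk_KO and 108 ± 36.5 TPM in control (SD, n = 2 each). The difference in log2(TPM + 1) was -2.53 (SE 0.34), and -2.10 without Qk_KO replicate 1. A filter on low values kept 13260 genes that averaged at least 1 TPM over the 4 libraries, and 99.7% of these had a smaller difference in size.

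Quaking binds RNA at a core written ACTAAC or ACTAAT in DNA letters. The coding sequence and 3' UTR of each creatine gene's main transcript were therefore searched for these 6 letters on the sense strand. The site in the Gatm 3' UTR is shown because Gatm was the creatine gene furthest below control in the Qk_KO libraries. It lies at chr2:122594549-122594578 on the minus strand (GENCODE M21 transcript sequence, GRCm38), and capitals mark the core.
Gatm 3' UTR site: ttttttggaaaaACTAATgcaggtaaaaca

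This was the only match in the 1030 bases of that 3' UTR, and the coding sequence of Gatm held none. No half-site (TAAC or TAAT), the second element of longer Quaking sites, lay within 20 bases of it. Among 2046 other genes tested whose 3' UTR was within 25% of that length, 26.9% held the core. The 3' UTRs of Gamt, Slc6a8, Ckb, Ckmt1 and Ckmt2 held no match, at lengths of 166, 1402, 202, 123 and 142 bases. The share of 3' UTRs of similar length with a match was 34.4% for Slc6a8 and between 4.04% and 5.35% for the 4 short ones. The Ckm 3' UTR held 1 match in 1455 bases, and the Ckmt2 coding sequence 1. A match is a string of letters, not a shown binding site.

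Gamt (Entrez gene 14431; chromosome 10, 80258151 to 80261012, minus strand, 6 exons) was at 38.6 and 32.0 TPM in Qk_KO libraries, against 30.7 and 27.8 TPM in control libraries. The ranges did not overlap, but the gap of the nearest values was smaller than the gap between replicates of either group. Means were 35.3 ± 4.66 TPM in Qk_KO and 29.3 ± 2.09 TPM in control (SD, n = 2 each). The log2 difference was 0.26 (SE 0.14), and 0.13 without Qk_KO replicate 1.

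The order of the synthesis genes was turned round between the groups. Gatm stood at 0.326 and 0.738 TPM per TPM of Gamt in Qk_KO replicates 1 and 2, against 2.66 and 4.81 in control replicates 1 and 2. Gamt was thus the higher of the pair in both Qk_KO libraries, and Gatm the higher in both control libraries.

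Slc6a8 (Entrez gene 102857; chromosome X, 73673150 to 73682502, plus strand, 13 exons) was at 62.3 and 72.2 TPM in Qk_KO libraries, against 69.8 and 65.9 TPM in control libraries. The Qk_KO values lay on either side of both control values. Means were 67.2 ± 6.99 TPM in Qk_KO and 67.8 ± 2.74 TPM in control (SD, n = 2 each), a log2 difference of -0.02 (SE 0.11), and 0.09 without Qk_KO replicate 1. The lowest Slc6a8 value was that of Qk_KO replicate 1, the library with Xist at 0.04 TPM, and the part of this in the values of an X-linked gene was not tested. Set against synthesis, the transporter stood at 4.94 and 3.05 TPM per TPM of Gatm in Qk_KO, against 0.852 and 0.493 in control.

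**Figure D2:**
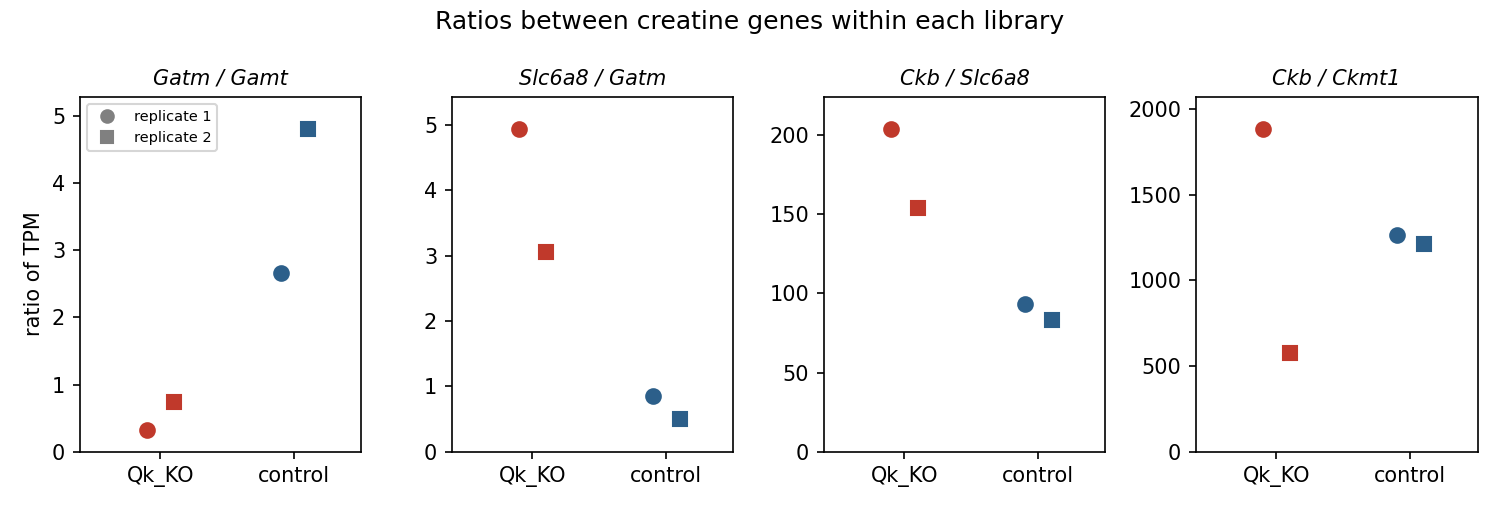
Ratios of TPM between pairs of creatine genes within each library (red, Qk_KO; blue, control; circles, replicate 1; squares, replicate 2), on linear axes from 0. The Gatm to Gamt ratio lies at 0.326 and 0.738 in Qk_KO, under 1, and at 2.66 and 4.81 in control, while the Ckb to Ckmt1 ratio of the Qk_KO libraries, 1884 and 576, spans both control values.

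Ckb (Entrez gene 12709; chromosome 12, 111669361 to 111672338, minus strand, 8 exons) was at 12699 and 11112 TPM in Qk_KO libraries, against 6492 and 5470 TPM in control libraries. Both Qk_KO values were above both control values, and the gap between groups was wider than that between replicates. This was 1.27% and 1.11% of all transcripts in Qk_KO, against 0.649% and 0.547% in control. Ckb ranked 1 among all genes in both Qk_KO libraries, ahead of the tubulin gene Tuba1a and the elongation factor gene Eef1a1, and ranked 3, behind these same genes, in both control libraries. Means were 11905 ± 1122 TPM in Qk_KO and 5981 ± 723 TPM in control (SD, n = 2 each). The log2 difference was 0.995 (SE 0.14), 0.90 without Qk_KO replicate 1, and 95.7% of genes tested had a smaller difference in size.

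Because TPM is a share, the higher Ckb level left slightly less of the total to all other genes, 98.7% and 98.9% in Qk_KO against 99.4% and 99.5% in control. With Ckb left out of the totals the log2 difference of Gatm was -2.52, that of Gamt 0.27, that of Slc6a8 -0.01 and that of Ckmt1 1.11. Of the 31-base words of the Ckb transcript, 36.8% also occur in transcripts of other genes, namely the processed pseudogenes Gm12892, Ckb-ps1 and Ckb-ps2. These pseudogenes are not among the genes listed, so their levels are unknown. Reads from them cannot be told apart from Ckb reads over such stretches. The share of words is not an error on the Ckb level, and the part of such reads in it was not tested.

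Ckmt1 (Entrez gene 12716; chromosome 2, 121357714 to 121363737, plus strand, 9 exons) encodes the creatine kinase that sits in the mitochondrial intermembrane space of many tissues, the brain included. It had 6.74 and 19.3 TPM in Qk_KO replicates 1 and 2, against 5.14 and 4.52 TPM in control replicates 1 and 2. Qk_KO replicate 2 was 2.86 times replicate 1, which lay nearer to the controls. Means were 13.0 ± 8.87 TPM in Qk_KO and 4.83 ± 0.438 TPM in control (SD, n = 2 each), and the log2 difference of 1.11 (SE 0.44) was 1.80 without Qk_KO replicate 1 and 0.41 without Qk_KO replicate 2. Strc, which overlaps Ckmt1 on the other strand, was at 0.06 TPM or less in each library.

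Of the muscle kinases, Ckm (Entrez gene 12715; chromosome 7, 19404776 to 19422841, plus strand) was listed at 0 in both Qk_KO libraries and at 0 and 0.11 TPM in control replicates 1 and 2. Ckmt2 (Entrez gene 76722; chromosome 13, 91853387 to 91876885, minus strand) was listed at 0 in all 4 libraries. Both were below the filter on low values and were not tested. Of 26 striated muscle genes, 20 were likewise below it, and the list summed to 80.2 and 33.7 TPM in Qk_KO, against 28.6 and 24.3 TPM in control. In Qk_KO most of this sum was from Casq1 and Tnnt1, at 37.6 and 18.8 TPM and 23.1 and 2.98 TPM in Qk_KO, against 12.6 and 9.73 TPM and 1.6 and 1.2 TPM in control. The list had 0 of 6 called (limma), 3 of them with an unadjusted p under 0.05, beside 28.4% (3760) of the 13260 genes tested, and its part in the kinase levels was not tested.

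The kinase pool was thus almost wholly Ckb in both groups. Ckb made up 99.95% and 99.83% of the summed creatine kinase TPM in Qk_KO libraries, against 99.92% and 99.92% in control libraries. Per TPM of Slc6a8 there were 204 and 154 TPM of Ckb in Qk_KO, against 93.1 and 83.0 TPM in control. Per TPM of Ckmt1 there were 1884 and 576 TPM of Ckb in Qk_KO, against 1263 and 1210 TPM in control, so this ratio overlapped. The coding sequences of Ckb and Ckm were identical at 76.5% of aligned bases with no identical run above 20 bases, and those of Ckmt1 and Ckmt2 at 71.6% with a longest run of 39 bases.

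Ordered by level, the control libraries had Ckb, then Gatm, Slc6a8, Gamt and Ckmt1, with no overlap between neighbours. In the Qk_KO libraries the order was Ckb, Slc6a8, Gamt, Gatm and Ckmt1, and Gatm and Ckmt1 overlapped. Gatm thus stood in the fourth place in Qk_KO, against the second in control.

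Across the whole transcriptome, limma with Benjamini-Hochberg adjustment called 430 of the 13260 genes (3.24%) at a threshold of 0.05. In Qk_KO, 242 of them (1.83%) were higher and 188 (1.42%) were lower. The 5 creatine genes above the filter were part of that fit, in which Ckb was called higher, Gatm lower and the other 3 not. Since the genes were chosen with this comparison known, nothing is read from that count. The Gatm call was kept without Qk_KO replicate 2 and lost without each of the other 3 libraries, and the Ckb call was lost without each of the 4. Over the 14 settings tried, the main fit included, Gatm was called in 9, Ckb in 8 and Gamt and Slc6a8 in 0. Ckmt1 was called in 1, the fit without Qk_KO replicate 1. Nothing is read from these counts either. The Qk_KO and control values did not overlap for 4 of the 5, beside 61.1% of all genes tested. The Qk_KO values were higher for 3 of them, Ckb, Ckmt1 and Gamt, beside 33.6% of all genes, and lower for 1, Gatm, beside 27.5%. The total of 430 rested on all 4 libraries: it was 60 without Qk_KO replicate 1, 148 without Qk_KO replicate 2, 10 without control replicate 1 and 4 without control replicate 2. An exact permutation test of 2 against 2 libraries cannot give a two-sided p below 0.333, so every p here depends on the spread that limma shares between genes.

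The genes whose centred profile of log2(TPM + 1) over the 4 libraries lay nearest to each creatine gene were listed as a description. Nearest to Gatm was Hmox1, which encodes heme oxygenase, at a distance of 0.22 log2 units. It stood at 102 and 177 TPM in Qk_KO, against 730 and 1025 TPM in control. Tgfb1 and Matn4 followed, at distances of 0.40 and 0.47. Nearest to Ckmt1 was Eef1a2, an elongation factor gene of neurons and muscle, at a distance of 0.13, with 31.3 and 91.1 TPM in Qk_KO, against 25.1 and 24.5 TPM in control. Xlr3a and Pianp followed, at 0.21 and 0.32. Nearest to Ckb were Akr1c13, Spint2 and Dusp28 at 0.06 to 0.08, all at 10 TPM or less, far under the level of Ckb. Gamt lay nearest to Ezr, Mcm9 and Tamm41, and Slc6a8 to Rnf146, Mmd and Paf1, all within 0.03. With only 4 libraries many genes share such a profile.

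Markers of other cell types were read beside these profiles. Fewer cells of a type and less RNA per cell cannot be told apart in such bulk libraries. Among 13 oligodendrocyte lineage genes above the filter, Pdgfra and Lhfpl3 fell, 0 rose and the test was missed by 11, with a median log2 difference of -0.75, against 0.04 over all genes tested. The list summed to 1049 and 1291 TPM in Qk_KO, against 1410 and 1254 TPM in control, mostly Olig1 and Olig2, and of its 17 genes Mog was the one at 0 in all 4 libraries. Sox10, the lineage's transcription factor, was at 2.38 and 7.55 TPM in Qk_KO, against 17.2 and 40.8 TPM in control. Bcas1, a gene of maturing oligodendrocytes, was at 0.56 and 2.12 TPM in Qk_KO, against 5.96 and 16.0 TPM in control. S100b, an astrocyte marker also made in oligodendrocyte cells, was at 0.67 and 1.81 TPM in Qk_KO, against 5.04 and 18.2 TPM in control. These 3 genes, named after their values were seen, had the same order of libraries as Gatm, and their part in the Gatm difference was not tested. Other genes of their lists differed. Olig1 and Olig2 overlapped between the groups, and Pdgfra was higher in control replicate 1, at 53.1 TPM, than in control replicate 2, at 35.8 TPM. Of the 13 lineage genes, 9 lay below control with no overlap, beside 27.5% of all genes tested. In the astrocyte list, which holds S100b, 4 genes tested had log2 differences above 0 and 9 below.

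**Figure D3:**
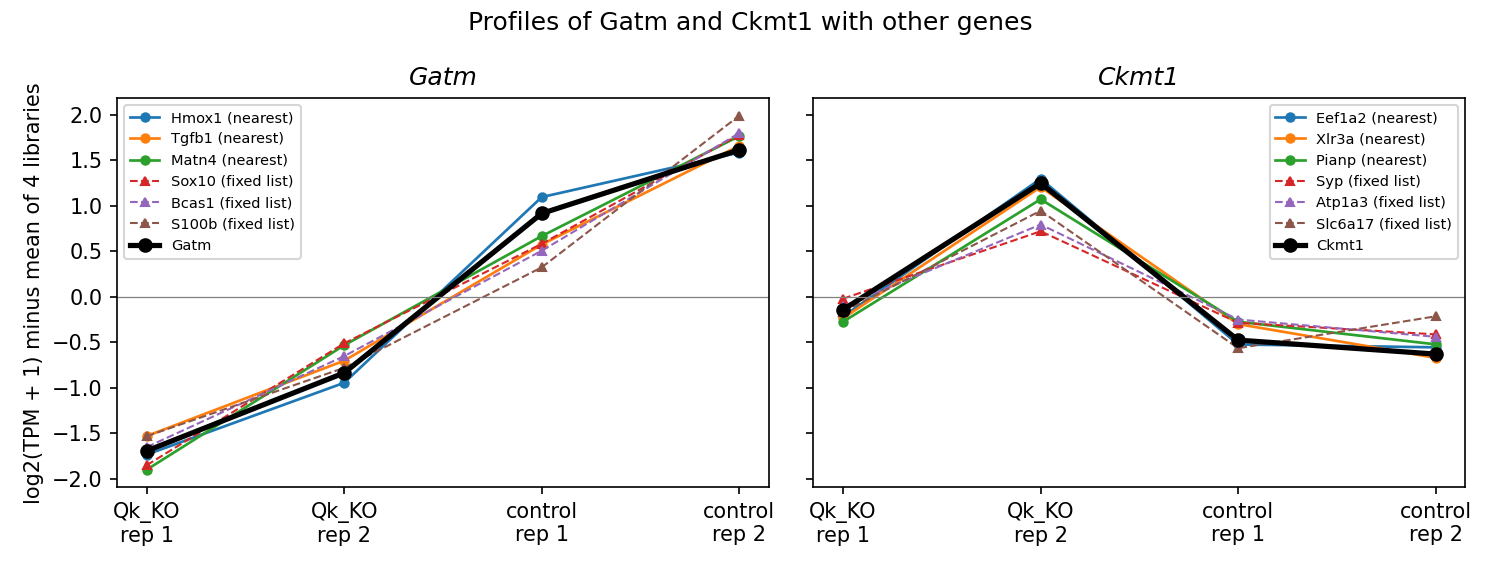
log2(TPM + 1) minus its mean over the 4 libraries for Gatm (left) and Ckmt1 (right, black lines), the 3 genes with the nearest profile (solid) and 3 genes of the marker and pathway lists chosen after their values were seen (dashed). Lines only join the points of 1 gene. Gatm and its neighbours are lowest in Qk_KO replicate 1 and highest in control replicate 2, and Ckmt1 and its neighbours are high in Qk_KO replicate 2.

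Among 13 neuron genes, all above the filter, Ina, Celf4 and Snap25 rose, 0 fell and the test was missed by 10. Their median was 0.45, and the list summed to 1170 and 1246 TPM in Qk_KO, against 830 and 623 TPM in control. None of the 13 was at 0. Syp, a synaptic vesicle gene, was at 40.2 and 67.8 TPM in Qk_KO, against 33.3 and 30.4 TPM in control. It was named after its values were seen, and like Ckmt1 it was highest in Qk_KO replicate 2. So was Gap43, at 305 and 421 TPM in Qk_KO, against 267 and 258 TPM in control. Tubb3, the most abundant of the list, was highest in Qk_KO replicate 1, at 512 and 383 TPM in Qk_KO, against 275 and 126 TPM in control. Stmn2 and Nefl were highest in control replicate 1. The part of these genes in the Ckmt1 level was not tested. Among 13 astrocyte genes above the filter, Aqp4 rose, Slc1a3 and Slc4a4 fell and the test was missed by 10, with a median of -0.10 and sums of 1398 and 1463 TPM in Qk_KO, against 1719 and 1917 TPM in control. The stem cell and radial glia list had 1 of 11 genes higher, Pax6, and 2 lower, Ednrb and Ptprz1, with a median of 0.06.

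All 8 microglia and macrophage genes tested had log2 differences below 0 and 0 were called, 7 of them with an unadjusted p under 0.05 (limma; 28.4% of all genes tested), with a median of -1.01. That list of 12 summed to 28.2 and 20.4 TPM in Qk_KO, against 59.0 and 51.0 TPM in control, and the part of such cells in the Gatm values was not tested. The endothelial list summed to 7.73 and 6.43 TPM in Qk_KO, against 5.82 and 6.99 TPM in control, with 0 of 2 called and 0 with an unadjusted p under 0.05 (limma). The erythroid list summed to 1.59 and 0.05 TPM in Qk_KO, against 0.55 and 0.12 TPM in control, all below the filter. The pericyte, fibroblast and meninges list had 0 of 6 called (limma), 3 with an unadjusted p under 0.05, and summed to 3533 and 1662 TPM in Qk_KO, against 1361 and 1204 TPM in control, mostly Acta2, a gene of contractile cells. Its part in the creatine gene values was not tested. In the marker lists, an alternative chosen after seeing the data left out each library in turn. The oligodendrocyte lineage calls were 1 lower without Qk_KO replicate 2 and 0 without any other library, and the neuron and stem cell calls were 0 without any library, with 3 to 10 genes per list at an unadjusted p under 0.05 (limma). The astrocyte calls were 1 higher without Qk_KO replicate 1, 2 higher and 1 lower without Qk_KO replicate 2, and 0 without either control library, and Acta2 and the muscle gene Tnnt1 were called higher without Qk_KO replicate 2.

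Genes linked to creatine through its substrates, through ATP or through the transporter family were then tested. The 7 lists are broad, and many of their genes neither make nor use creatine. Of their 128 genes, 94 were above the filter. Among these 2 rose and 1 fell while 91 missed the test, or 3.19% called, beside 3.24% of all genes tested. Their median log2 difference was -0.0011, beside 0.04 over all genes tested. The count was 0 when any 1 of the 4 libraries was left out (limma, with 16 to 31 genes at an unadjusted p under 0.05), while 36 of the 94 had an unadjusted p under 0.05 with all libraries in, beside 28.4% of all genes tested.

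Arginine, a substrate of Gatm, and ornithine, its second product, belong to the list with the most calls, where 2 of 22 rose, 1 fell and 19 missed the test, with a median of -0.09. Oat, which converts ornithine to glutamate semialdehyde, was at 149.9 and 146 TPM in Qk_KO, against 92.3 and 88.9 TPM in control. It rose by a log2 difference of 0.70 (SE 0.09, adjusted p = 0.0365 by limma), with both Qk_KO values above both control values. Asl, the lyase that releases arginine from argininosuccinate, was at 62.9 and 74.9 TPM in Qk_KO, against 42.8 and 38.7 TPM in control, and rose by 0.74 (SE 0.13, adjusted p = 0.0482 by limma). Azin1, an inhibitor of antizyme that keeps polyamine synthesis active, was at 39.2 and 40.3 TPM in Qk_KO, against 61.1 and 67.6 TPM in control, with a log2 difference of -0.68 (SE 0.10, adjusted p = 0.0428 by limma). For Oat, Asl and Azin1 the two-sided limma test was lost without each library in turn. Over the 13 alternatives the adjusted p ran from 0.0263 to 0.239 for Oat, 0.038 to 0.281 for Asl and 0.0319 to 0.262 for Azin1.

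The lists for glycine, the other substrate of Gatm, and for methyl groups, the donor side of Gamt, had 0 calls among 12 and 17 genes tested (limma), 4 and 6 of them at an unadjusted p under 0.05, with medians of -0.01 and -0.06. Phgdh, the first enzyme of serine synthesis, averaged 319 ± 29.6 TPM in Qk_KO and 326 ± 5.81 TPM in control (SD, n = 2 each), and Psat1, the next enzyme, 220 ± 35.2 TPM in Qk_KO and 202 ± 9.22 TPM in control. Mat2a, which makes the methyl donor S-adenosylmethionine, averaged 137 ± 20.4 TPM in Qk_KO and 136 ± 8.64 TPM in control, and Ahcyl1, a relative of the enzyme that clears the spent donor, 139 ± 8.25 TPM in Qk_KO and 156 ± 5.16 TPM in control. None of these 4 differences passed limma, and the group ranges overlapped for Phgdh, Psat1 and Mat2a.

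On the side of ATP, a further list held adenylate and nucleotide kinases, which pass phosphate between nucleotides, and AMP deaminases, which do not. It had 0 of 17 genes called and 10 at an unadjusted p under 0.05, beside 28.4% of all genes tested (limma, median 0.07). Nme2 averaged 492 ± 18.9 TPM in Qk_KO and 537 ± 27.3 TPM in control, and Nme1 averaged 420 ± 59.7 TPM in Qk_KO and 399 ± 7.44 TPM in control (SD, n = 2 each). The mitochondrial list, with ATP synthase subunits, the ADP/ATP carriers and the VDAC pores, had 0 of 14 called and 3 at an unadjusted p under 0.05 (limma), 9 above 0 and 5 below, and a median of 0.12. Its most abundant gene, the ATP synthase subunit gene Atp5b, was at 2756 and 3052 TPM in Qk_KO, against 2457 and 2482 TPM in control (adjusted p = 0.21 by limma). Atp5e averaged 1133 ± 248 TPM in Qk_KO and 1051 ± 35.5 TPM in control.

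Cation pumps are large users of ATP. Of 8 above the filter 0 were called (limma), 4 had an unadjusted p under 0.05, beside 28.4% of all genes tested, and the median was 0.32. Atp1b2, a sodium pump subunit of glia, was at 554 and 639 TPM in Qk_KO, against 753 and 798 TPM in control (log2 difference -0.38, SE 0.11, adjusted p = 0.0962 by limma). Atp2a2, a calcium pump of the endoplasmic reticulum, was at 233 and 258 TPM in Qk_KO, against 263 and 291 TPM in control (log2 difference -0.18, SE 0.10, adjusted p = 0.317 by limma). For both genes the Qk_KO values were below the control values, and neither passed. In the family of Slc6a8, 5 of 18 genes listed with the exporter Slc16a12 were above the filter and 0 were called, with 0 at an unadjusted p under 0.05 (limma, median 0.05). The glycine transporter gene Slc6a9 averaged 21.2 ± 1.11 TPM in Qk_KO and 20.4 ± 0.0073 TPM in control, and the taurine transporter gene Slc6a6 averaged 54.1 ± 2.90 TPM in Qk_KO and 56.8 ± 0.34 TPM in control (SD, n = 2 each).

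**Figure D4:**
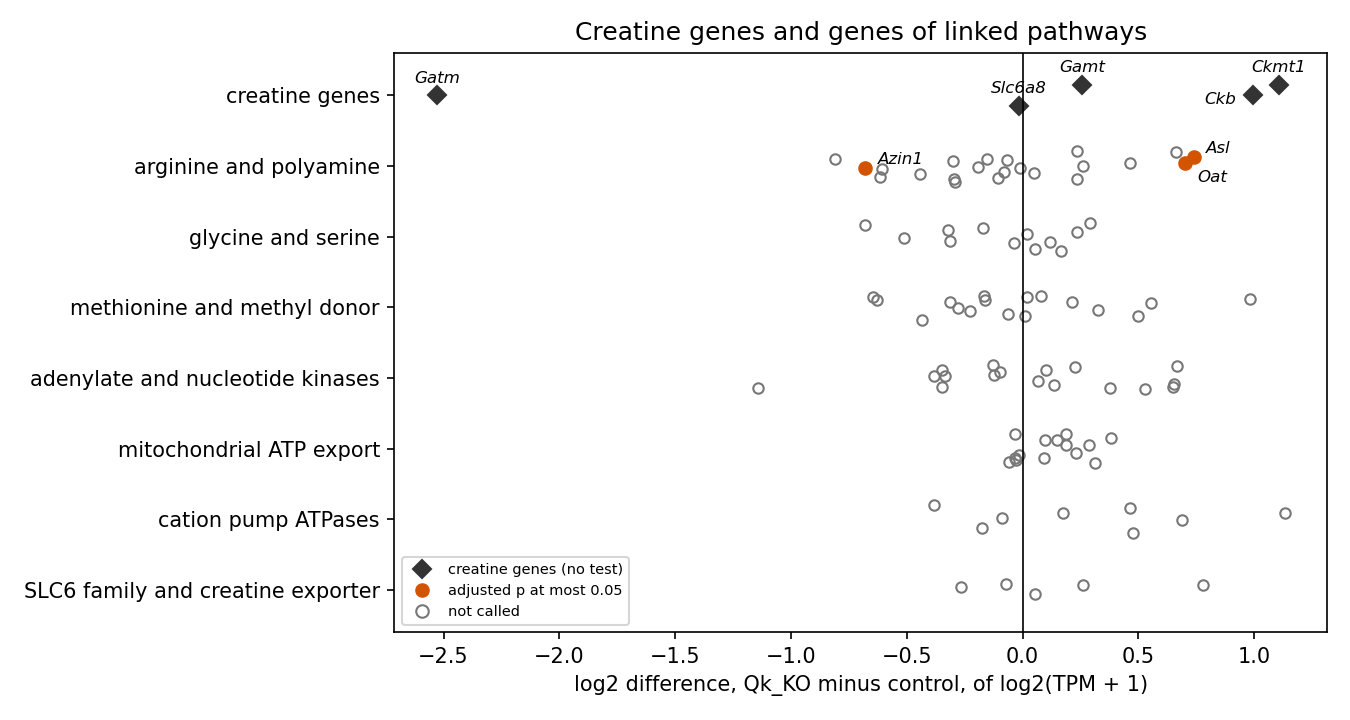
log2 difference of Qk_KO minus control in log2(TPM + 1) for the 5 creatine genes above the filter (diamonds, no test) and for 94 genes of 7 linked lists (circles; filled where the limma adjusted p is at most 0.05), with Slc6a9 shown in 2 lists. Gatm at -2.53 lies to the left of every gene of the linked lists, and Oat, Asl and Azin1 are the filled circles.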

How the data were processed

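The authors deposited TPM per gene, 1 table per library with Entrez number and symbol, and each sums to 1000000 within rounding. The submitters' processing notes name STAR 2.4.1d, RSEM 1.3.0, mm10 and GRCm38.p4, and the labels' protocols name poly(A) selection and the Ion Proton. Annotation, filters, strandedness and depth were not given in the sources used here, so precision rests on the spread between libraries.

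Genes averaging at least 1 TPM, 13260 in all, entered 1 limma 3.58.1 fit (R 4.3.3; lmFit, eBayes with trend) of log2(TPM + 1), Qk_KO minus control. Tests were two-sided, adjusted by Benjamini-Hochberg across the whole fit, and called at 0.05. The pseudocount of 1 understates changes of low genes. The fit was tested on simulated data.

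The members and all lists were chosen with earlier results of these data known. Named were Qk, the members, up to 4 called genes of each linked list by size of difference or otherwise its 2 most abundant, the 3 nearest profiles (Euclidean distance) of each member tested, leaving out predicted loci, and the 2 most abundant markers of each list. Most of the last are given only as list sums, and other markers named were chosen after their values were seen. From the linked lists 3 genes are not reported here and were left out of the list counts.

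Main transcripts (GENCODE M21, GRCm38, matched by Entrez number for all 7) were the APPRIS principal, longest where several. Figures used matplotlib 3.10.9. The alternatives tried were other pseudocounts, filters, scalings and limma settings, a block for the replicate number, and fits without 1 library each.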

Additional observations from a re-analysis of the deposited data

How the results depend on the processing

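The 5 creatine genes tested kept the direction of their log2 difference under the pseudocounts, scalings, replicate block and left-out libraries tried, except Slc6a8, which was 0.09 without Qk_KO replicate 1 and 0.02 without control replicate 1. Leaving out 1 library each gave -2.96 to -2.10 for Gatm, 0.87 to 1.12 for Ckb, 0.13 to 0.39 for Gamt, -0.12 to 0.09 for Slc6a8, 0.41 to 1.80 for Ckmt1 and -0.15 to 0 for Ckm. Quantile normalization lowered Ckb to 0.59, since it gives the top rank the same value in every library, and a pseudocount of 0.1 moved Ckm to -0.54. The count of genes called by limma was 0 with no filter on low values, that is with all 21835 genes above 0 in any library (4327 had an unadjusted p under 0.05), 649 when genes had to average 5 TPM or more, 41 with no mean-variance trend, and 4 to 148 with 1 library left out. For the linked pathways these counts were 0 (39 with an unadjusted p under 0.05), 6, 0 (31) and 0 in each case, beside 5 with a pseudocount of 0.1, median-ratio scaling or quantile normalization. With the replicate number as a block 1278 genes and 14 linked pathway genes passed, but 2 pairs cannot show that the numbers pair the libraries (r = 0.11 between their replicate differences over 13260 genes). With the block 8 of 13 oligodendrocyte lineage genes and 5 of 8 microglia and macrophage genes passed, all lower. The astrocyte list had 2 higher and 4 lower of 13, and the neuron list 4 higher of 13. The stem cell and radial glia list stayed at 1 higher and 2 lower of 11. Sox10, Bcas1 and S100b were among the genes that passed, and the calls of the other pathway genes named here stayed as they were. Genes not called changed sign when 1 library was left out: Phgdh ran from -0.13 to 0.059, Psat1 from -0.046 to 0.28, Mat2a from -0.14 to 0.16, Nme1 from -0.077 to 0.21 and Atp5e from -0.13 to 0.32, and Mat2a was -0.024 with median-ratio scaling. A group left with 1 library was assumed to vary like the other, and the filter was taken again on the remaining libraries. Causes were not tested.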
